A study of Mus musculus with 6 samples.

Results

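The genes described here encode the nuclear subunits of the mitochondrial respiratory chain and ATP synthase, with proteins that share their symbols, 90 genes of the 18193 measured in mouse retina. They were chosen by symbol alone: Ndufa, Ndufb, Ndufc, Ndufs and Ndufv for complex I, Sdha to Sdhd for complex II, Uqcr for complex III, Cox4 to Cox8 for complex IV and Atp5 for complex V. Only probe sets that name exactly 1 gene were taken, 179 in all, and each gene was represented by its probe set with the highest mean over the 6 arrays. Complex I holds 34 of the genes, complex II 4, complex III 8, complex IV 18 and complex V 17. The other 9 match the symbols without being subunits: the complex I assembly factors Ndufaf1 to Ndufaf8 and the supercomplex factor Cox7a2l.

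Complexes I and II pass electrons from NADH and succinate to coenzyme Q, complex III passes them on to cytochrome c, and complex IV, cytochrome c oxidase, reduces oxygen to water. Complexes I, III and IV pump protons, and complex V, the ATP synthase, lets them back to make ATP. In the retina the inner segments of photoreceptors are packed with mitochondria, and several complex IV subunits exist as a widely expressed form and a form restricted to heart, muscle, lung or testis.

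The study hybridised retinal RNA to 6 arrays of 1 kind, 3 titled ko/ko and 3 titled wt/wt, to see which transcripts differ when both copies of Nxnl2 are lost. Nxnl2 encodes a thioredoxin-like protein of photoreceptors. All mice were of the BALB/c AJ strain, 40 days old, and their retinas were dissected without the pigment epithelium. Both groups share strain, age and tissue and differ in the labels by the Nxnl2 genotype alone. The labels do not say whether the arrays of a group came from separate animals, so p-values speak only of how these arrays vary, which may be technical variation, and the small number of arrays limits precision. Whole retina is a mixture of cells, in which fewer cells of a type and less RNA per cell cannot be told apart.

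On the log2 scale of the arrays, Nxnl2 itself read 3.78 and 3.73 in the first and second knockout replicates, against 11.38, 11.45 and 11.42 in wild type. The array titled knockout replicate 3 read 9.21. The transcript was thus plainly present in an array that carries the knockout label. That array also went against its tissue label. Its summed rod photoreceptor markers read 12.83 on the log2 scale, nearly all of it Gnb1, which other cells also express, against 16.99 to 17.11 in the 5 other arrays, and only 6 of 13 lay above its Bacillus control probe sets, which match no mouse transcript. Its summed olfactory and airway markers read 16.66, against 8.71 to 8.89 in the 5 other arrays. It is called the array titled knockout replicate 3 and is described apart from the other knockout arrays. In the 5 other arrays each remaining marker sum spanned less than 1, except skeletal muscle in knockout replicate 2 (11.05, against 9.42 to 9.77 in the other 4) and lens in wild-type replicate 2 (14.97, against 11.94 to 12.33 in the other 4).

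Nearly all of the respiratory chain was readily measured. Of the 90 genes, 88 lay above the highest Bacillus control of the same array (4.13 to 4.60) in all 6 arrays, as 70.6% of all genes did. The exceptions were 2 tissue forms of complex IV subunits. Cox7b2, a testis form, lay below the control in every array, and Cox7a1, the heart and muscle form of subunit 7a, lay above it in 4 of 6. In wild type, 62 of the 90 genes had a mean of at least 10.

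The levels of each complex in the knockout arrays lay close to those in wild type. The median level over complex I genes was 10.76 in knockout replicates 1 and 2 and 10.75 in wild type, over complex II genes 9.96 and 9.98, and over complex III genes 10.79 and 10.76. Complex IV genes had a median of 9.41 in knockout replicates 1 and 2 and 9.44 in wild type, complex V genes 11.49 and 11.47, and the 9 assembly and supercomplex factors 7.86 and 7.92. Complex IV spanned the widest range in wild type, 2.79 to 13.26, and holds the 8 tissue forms, whose wild-type levels ran from 2.79 to 7.58. Brightness differs between probe sets at equal RNA, so these medians describe the probe sets of a complex and do not rank the complexes. No transcript encoded by mitochondrial DNA was among the measured genes: 0 of 13 such names matched a probe set.

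**Figure D1:**
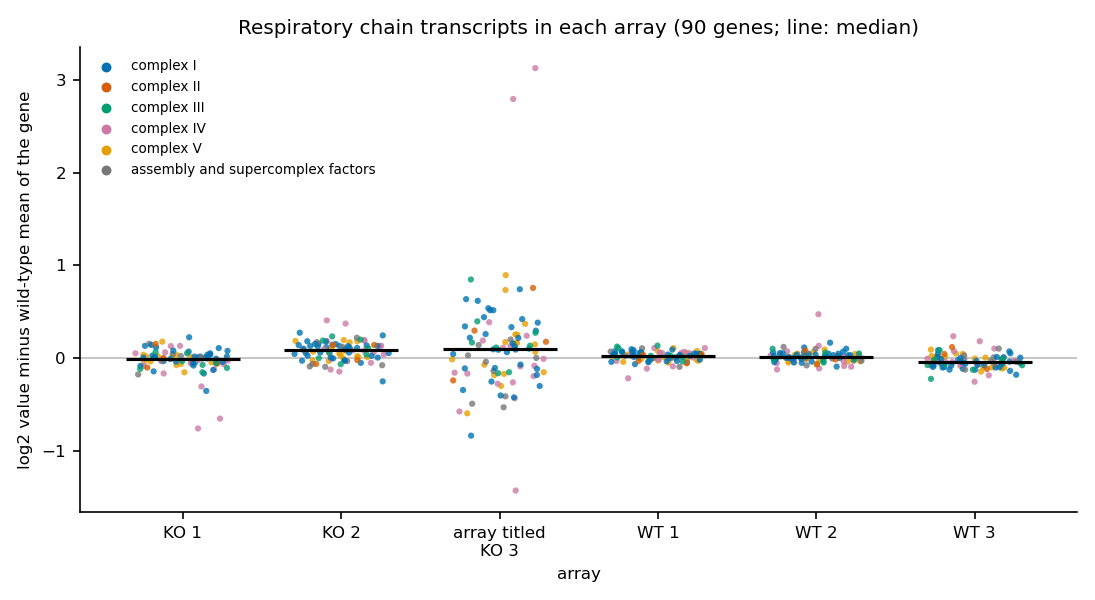
Each point is 1 of 90 genes in 1 array, as its log2 value minus the gene's wild-type mean, coloured by complex, with the median of each array as a line. The points of knockout replicates 1 and 2 and of wild type stay in a narrow band, with medians between -0.04 and 0.08, while the array titled knockout replicate 3 spreads from -1.43 to 3.13.

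In knockout replicates 1 and 2, no respiratory chain transcript passed the test against wild type, and all stayed within a narrow range of it. Limma with Benjamini-Hochberg adjustment over all 18193 genes called 0 of the 90, beside 2 of all genes (0.011%), Erdr1 and Nxnl2, the targeted gene, whose log2 change was -7.67 ± 0.09 (SE) with an adjusted p of 1.1e-09. The smallest adjusted p among the 90 genes was 0.999. At an unadjusted p under 0.05, 2 of 90 passed, Cox6b2 and Ndufb4, beside 3.45% of all genes. The changes ran from -0.40 to 0.25 on the log2 scale, and their median was 0.04 over the 90 genes and 0.00 over all genes.

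For these arrays, the data also bound how large a difference could have gone unseen. The 95% interval of the change lay within 1.5-fold either way for 88 of 90 genes, beside 96.2% of all genes, and within 2-fold for all 90, beside 99.4%. The median interval reached 0.22 to either side of the estimate on the log2 scale. The 2 genes whose intervals reached past 1.5-fold, Cox8b and Cox6b2, are tissue forms of complex IV subunits. Like the p-values, these intervals speak only of how these arrays vary, and they are not adjusted for the number of genes.

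**Figure D2:**
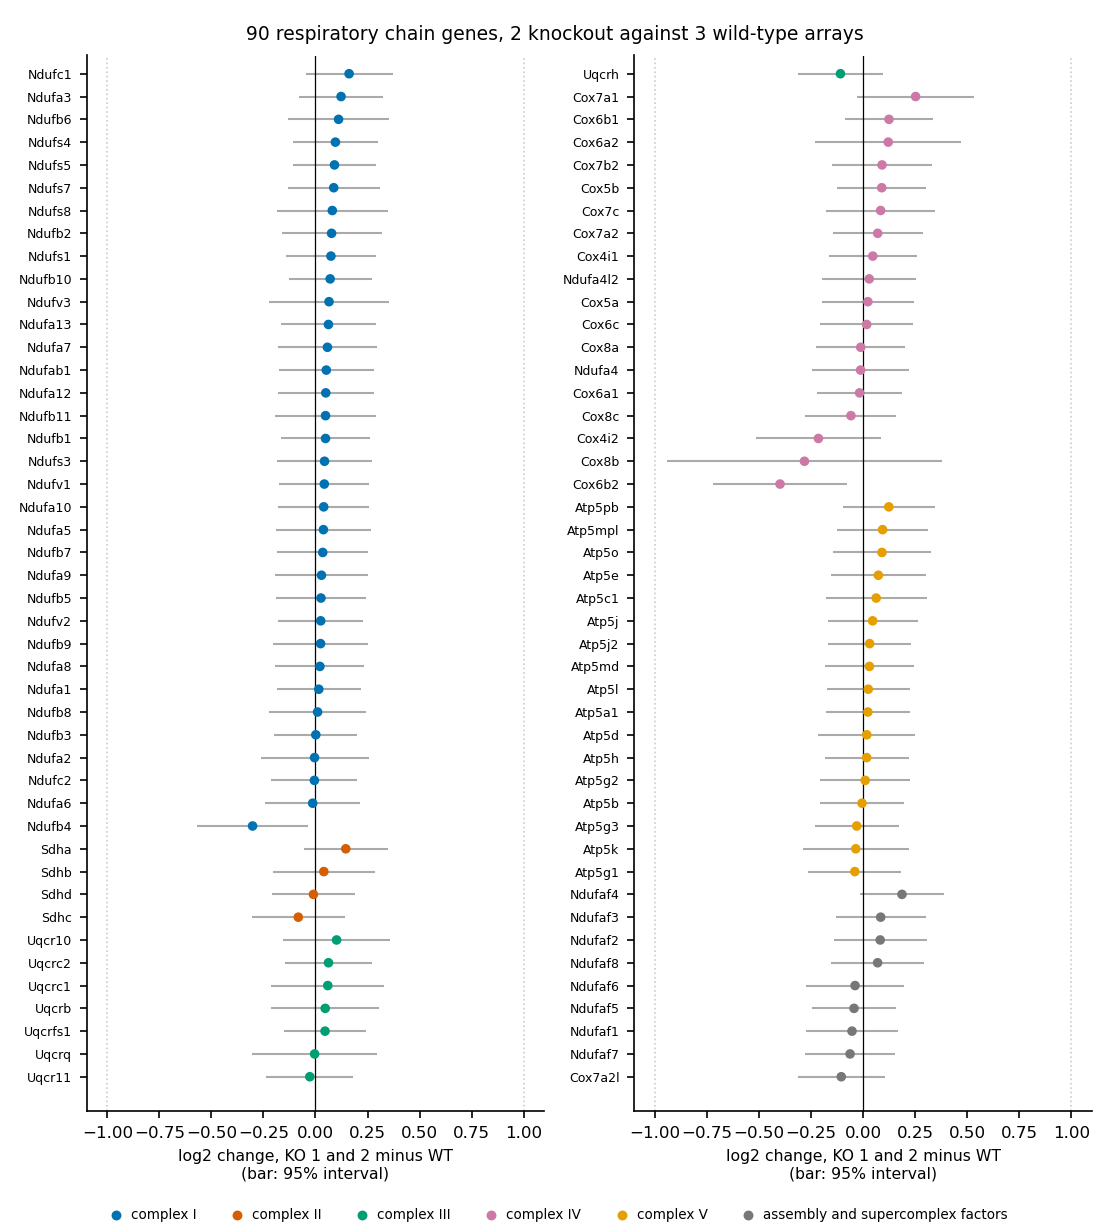
Log2 change of each of the 90 genes, knockout replicates 1 and 2 minus the 3 wild-type arrays, as a point with its 95% interval, grouped and coloured by complex. Every interval lies inside the dotted lines at 2-fold, and those of 2 genes, Cox6b2 and Ndufb4, leave out 0 before any adjustment.

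The direction of the small differences rested on 1 array. The mean of knockout replicates 1 and 2 lay above wild type for 65 of 90 genes, beside 51.9% of all genes, but the median deviation from the wild-type mean was -0.01 in knockout replicate 1, whereas knockout replicate 2 had 0.08. The wild-type arrays had medians of 0.02, 0.01 and -0.04. Knockout replicate 2 read higher than knockout replicate 1 for 68 of 90 genes, 17 of 18 in complex IV and 25 of 34 in complex I, beside 60.0% of all genes and 49.3% of the 1444 genes with a wild-type mean of at least 10. Without knockout replicate 1 the median change over the 90 genes was 0.08, and without knockout replicate 2 it was -0.01.

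Groups of 2 and 3 arrays that do not overlap were about as frequent here as elsewhere. Knockout replicates 1 and 2 both lay above all wild-type arrays for 11 of 90 genes, beside 9.19% of all genes, and both lay below for 4 of 90, beside 7.27%. Of the 11, complex I gave 5. The 4 that lay lower were Cox6b2, Ndufb4, Cox7a2l and Uqcrh.

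Among complex I genes, the smallest p-values belonged to 3 accessory subunits, which surround the catalytic core. Ndufb4 read 5.54 and 5.64 in knockout replicates 1 and 2, against 5.90, 6.06 and 5.71 in wild type, a log2 change of -0.30 ± 0.12 (SE), with a limma adjusted p of 0.999. The knockout arrays both lay below wild type, by as little as 0.07 between the nearest arrays. Ndufb4 rests on 1 probe set, the dimmest of the 34 complex I genes, whose median wild-type level was 10.75. Ndufc1 read 10.98 and 11.02 in knockout replicates 1 and 2, against 10.77, 10.90 and 10.84 in wild type, a change of 0.16 ± 0.09. Ndufa3 read 10.91 and 10.93, against 10.75, 10.84 and 10.80 in wild type, a change of 0.12 ± 0.09. Both sat slightly above all wild-type arrays. Over the 6 core subunits measured, most of which carry flavin or iron-sulphur centres, the changes lay between 0.02 and 0.09.

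Complex II, succinate dehydrogenase, also belongs to the citric acid cycle. Its flavoprotein Sdha read 11.27 and 11.26 in knockout replicates 1 and 2, against 11.09, 11.11 and 11.17 in wild type, a log2 change of 0.15 ± 0.09 (SE). The iron-sulphur subunit Sdhb read 10.17 and 10.37, against 10.26, 10.31 and 10.11 in wild type, with the groups overlapping. The membrane anchors Sdhc and Sdhd differed from wild type by -0.08 ± 0.10 and -0.01 ± 0.09, also with overlapping groups. Sdha was thus the complex II gene whose knockout arrays both lay above wild type, by 0.09 between the nearest arrays, and it did not pass the test (limma adjusted p = 0.999). Its next brightest probe set had overlapping groups and a change of 0.04.

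In complex III, Uqcrh, the hinge protein that binds cytochrome c1, read 11.47 and 11.56 in knockout replicates 1 and 2, against 11.63, 11.63 and 11.61 in wild type. Its log2 change was -0.11 ± 0.09 (SE). Uqcrc2, a core protein of the complex, read 10.83 and 10.83, against 10.79, 10.82 and 10.69 in wild type, a change of 0.06 ± 0.09. The small subunit Uqcr10 differed by 0.10 ± 0.11 with overlapping groups. None of the 3 passed the test.

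In complex IV the main probe sets of the widely expressed subunits held steady values while several tissue forms varied from array to array. Cox4i1, Cox6a1, Cox7a2 and Cox8a had log2 changes of 0.05, -0.02, 0.07 and -0.01, each with an SE of 0.09 or 0.10. Cox6b1, the form that sits where the monomers of the cytochrome oxidase dimer meet, read 11.78 and 11.91 in knockout replicates 1 and 2, against 11.75, 11.74 and 11.68 in wild type, a change of 0.12 ± 0.09. Ndufa4, first assigned to complex I and now placed in complex IV, differed by -0.01 ± 0.10. Cox5a, named after its values were seen, depended on the probe set. Its main one differed by 0.02 ± 0.10, with overlapping groups. Another read 11.38 and 11.21 in knockout replicates 1 and 2, against 11.15, 11.10 and 11.09 in wild type. A further one read 10.59 and 10.69, against 10.50, 10.38 and 10.33 in wild type. Their changes were 0.18 ± 0.10 and 0.24 ± 0.10.

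Cox6b2, the testis form of the same subunit as Cox6b1, had the largest change in size of the 90 genes. It read 6.33 and 6.83 in knockout replicates 1 and 2, against 6.99, 7.00 and 6.94 in wild type, a log2 change of -0.40 ± 0.14 (SE), with a limma adjusted p of 0.999. The 2 knockout arrays differed from each other by more than the 3 wild-type arrays did. Cox8c and Cox7b2, both testis forms, differed from wild type by -0.06 ± 0.10 and 0.09 ± 0.11.

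The heart and muscle forms were higher in knockout replicate 2 than in knockout replicate 1. This was not particular to them: it held for all 8 tissue forms of complex IV and for 9 of its 10 widely expressed subunits. Cox6a2 read 6.31 and 6.88 in knockout replicates 1 and 2, against 6.44, 6.51 and 6.47 in wild type. Cox7a1 read 4.36 and 4.60, against 4.14, 4.14 and 4.41 in wild type. Cox8b read 6.62 and 7.57, against 7.16, 7.85 and 7.12 in wild type. Knockout replicate 2 is the array with the high sum of skeletal muscle markers, 15 of 15 above the control there and 8 to 10 of 15 in the other 4 arrays, and wild-type replicate 2, where Cox8b was highest among the 5 arrays, is the array with the high sum of lens markers. Its skeletal muscle sum, 9.77, was also the highest of the wild-type arrays, against 9.50 and 9.42 in the others. Their part in these values was not tested. The log2 changes were 0.12 ± 0.15 for Cox6a2, 0.25 ± 0.12 for Cox7a1 and -0.28 ± 0.29 for Cox8b (SE), none past the test. Cox4i2, the lung form of subunit 4, read 5.93 and 6.11, against 6.12, 6.11 and 6.47 in wild type, a change of -0.21 ± 0.13. Ndufa4l2, a relative of Ndufa4 induced by low oxygen, differed by 0.03 ± 0.10.

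**Figure D3:**
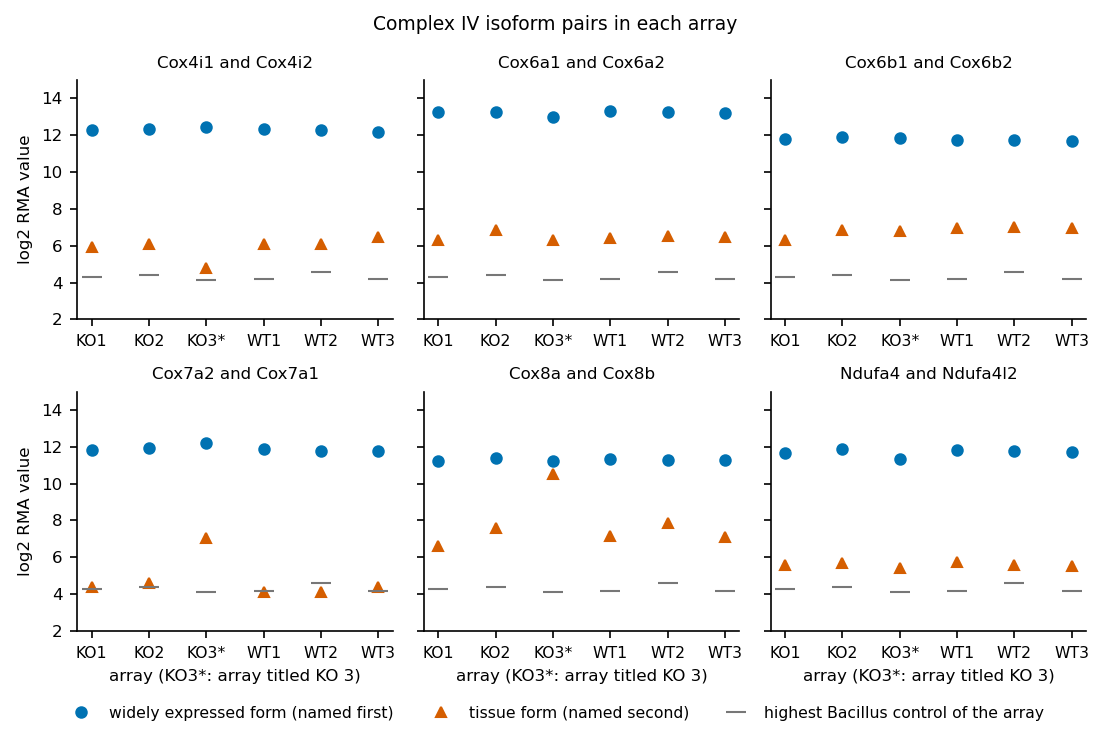
Log2 values of 6 pairs of complex IV subunit forms in every array, with the widely expressed form as a circle, the tissue form as a triangle and the array's highest Bacillus control as a dash. In knockout replicates 1 and 2 and in wild type Cox8b ranges from 6.62 in knockout replicate 1 to 7.85 in wild-type replicate 2, and in the array titled knockout replicate 3 Cox8b reads 10.51, Cox7a1 7.03 and Cox4i2 4.80.

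For complex V, all changes lay between -0.04 and 0.12. Atp5pb, subunit b of the peripheral stalk that holds the catalytic head still, read 11.85 and 11.74 in knockout replicates 1 and 2, against 11.72, 11.72 and 11.57 in wild type, a log2 change of 0.12 ± 0.10 (SE). Atp5o, the stalk subunit that confers oligomycin sensitivity, differed by 0.09 ± 0.10, and the small proteolipid Atp5mpl by 0.09 ± 0.10. The 3 genes for the identical c subunit of the rotor ring, Atp5g1, Atp5g2 and Atp5g3, differed from wild type by -0.04 ± 0.10, 0.01 ± 0.09 and -0.03 ± 0.09.

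Of the proteins that share symbols without being subunits, Ndufaf4, a complex I assembly factor, read 8.92 and 8.99 in knockout replicates 1 and 2, against 8.77, 8.74 and 8.80 in wild type. Its log2 change was 0.19 ± 0.09 (SE), with a limma adjusted p of 0.999. Ndufaf3, its partner in assembly, differed by 0.08 ± 0.09. Cox7a2l, which joins complexes III and IV in supercomplexes, read 10.47 and 10.61, against 10.64, 10.64 and 10.65 in wild type, a change of -0.10 ± 0.09.

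With the array titled knockout replicate 3 included, as the deposited design has it, limma again called 0 of 90 genes, beside 0.0% of all genes. At an unadjusted p under 0.05 it passed 0 of 90, beside 132 genes of 18193 (0.726%). The smallest adjusted p among the 90 genes was 0.745, and Nxnl2 itself, at -5.85 ± 1.56 (SE), had the same adjusted p. All 3 knockout-titled arrays lay above wild type for 8 of 90 genes, beside 4.64% of all genes, and below for 3, namely Cox6b2, Ndufb4 and Cox7a2l, beside 4.0%.

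The array titled knockout replicate 3 held the respiratory chain close to its level in wild-type retina, although many other transcripts differed widely. Past 2-fold, 2 of 90 genes were higher, beside 15.8% of all genes, and 1 was lower, beside 11.5%. All 3 are tissue forms of complex IV subunits. With 1 array there is no replicate and no test, so these are differences between that array and the mean of 3 wild-type arrays.

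Among the brighter genes the shares past 2-fold lay far apart. None of the 62 respiratory chain genes with a wild-type mean of at least 10 lay past 2-fold in the array titled knockout replicate 3, whereas 36.8% of the 1444 genes of that brightness did, 33.9% lower and 2.98% higher. Picking genes by their wild-type level favours genes that are lower in the other array. With the level taken as the mean of that array and wild type, a setting chosen after seeing the data, 0 of 66 respiratory chain genes lay past 2-fold, beside 25.2% of 1173 genes. At 1.5-fold the counts by wild-type level were 6 of 62 and 52.4%. The median difference was 0.11 over the 62 genes and -0.45 over the 1444. All 13 measured rod markers were among the genes more than 2-fold lower, and their part in these shares was not tested.

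**Figure D4:**
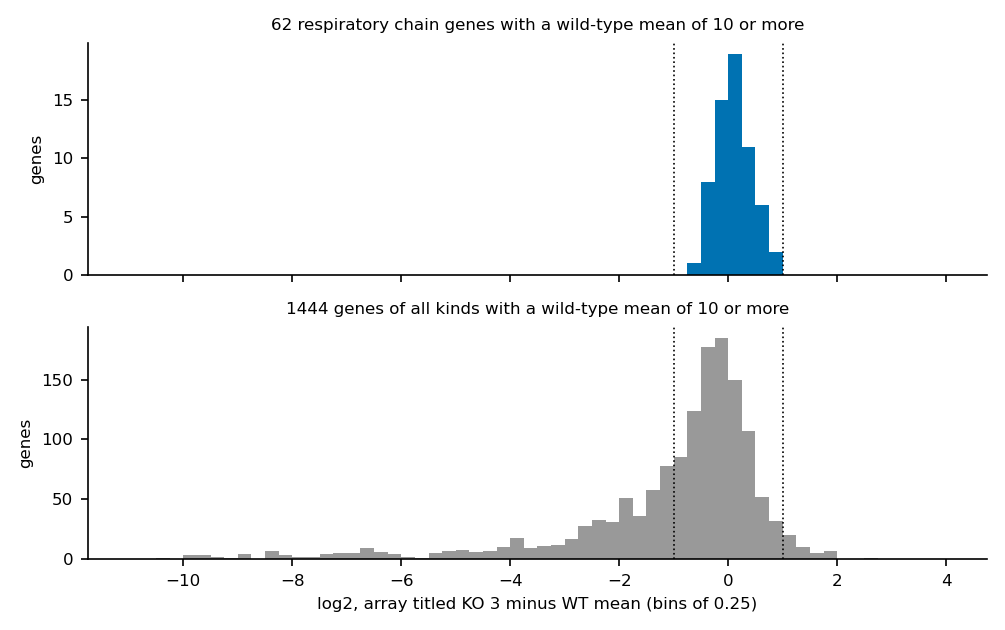
Histograms, in bins of 0.25, of the log2 difference between the array titled knockout replicate 3 and the wild-type mean for the 62 respiratory chain genes (top) and all 1444 genes (bottom) with a wild-type mean of at least 10. The 62 genes all lie between the dotted 2-fold lines, while 36.8% of the 1444 lie outside them.

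Within those bounds the genes of a complex did not move as a block. The median difference between the array titled knockout replicate 3 and wild type was 0.11 over complex I, 0.24 over complex II, 0.15 over complex III, -0.09 over complex IV, 0.15 over complex V and -0.04 over the assembly and supercomplex factors. That array lay above all 5 others for 42 of 90 genes, beside 36.5% of all genes, and below all 5 others for 28, beside 42.4%. Most single genes therefore lay outside the narrow range of the 5 other arrays, as did most of all genes. The difference from the wild-type mean had a median size of 0.22 over the 90 genes and 0.44 over all genes.

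**Figure D5:**
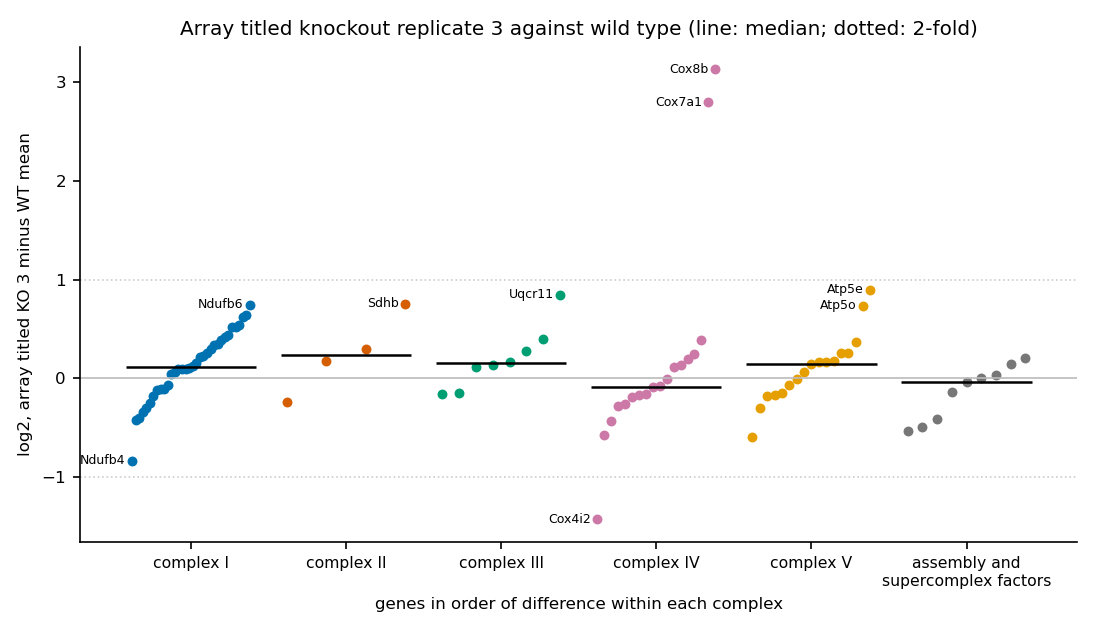
Log2 difference of each gene between the array titled knockout replicate 3 and the wild-type mean, in order within each complex, with the median as a line and 2-fold as dotted lines. Cox8b and Cox7a1 stand above the upper line and Cox4i2 below the lower one, and all other genes lie between.

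Small subunits of complexes I, III and V and 1 of complex II lay farthest above wild type after the complex IV forms. Atp5e, the epsilon subunit of the ATP synthase, read 11.19 in the array titled knockout replicate 3, against 10.25, 10.33 and 10.31 in wild type. Uqcr11, a small complex III subunit, read 10.69, against 9.85, 9.90 and 9.78 in wild type. Sdhb read 10.99, against 10.26, 10.31 and 10.11 in wild type. All 3 lay 0.76 to 0.90 above the wild-type mean and above each of the 5 other arrays. Ndufb6, an accessory subunit of complex I, lay 0.74 above, but its other probe set, of nearly equal brightness, lay only 0.09 above. Atp5o lay 0.73 above.

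Other genes of the same complexes lay below wild type in that array. Atp5b, the catalytic beta subunit of the ATP synthase, read 12.51 in the array titled knockout replicate 3, against 13.13, 13.09 and 13.11 in wild type. Ndufb4, on the dimmest probe set used for complex I, read 5.05, against 5.90, 6.06 and 5.71 in wild type. Cox7c, a widely expressed complex IV subunit, read 6.57, against 7.20, 7.28 and 6.96 in wild type. Its probe set was the dimmest of the 10 such subunits, with a wild-type mean of 7.15, where their median was 11.78. Thus Atp5e and Atp5b, both subunits of the ATP synthase, lay 0.90 above and 0.60 below wild type. The assembly factors Ndufaf6 and Ndufaf5 lay 0.53 and 0.49 below, and Sdha 0.24 below where Sdhb lay 0.76 above.

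Cox8b and Cox7a1, the forms of subunits 8 and 7a made in heart, muscle and brown fat, were the genes far above wild type in the array titled knockout replicate 3. Cox8b read 10.51 there, against 7.16, 7.85 and 7.12 in wild type, 8.75-fold above the wild-type mean. Cox7a1 read 7.03, against 4.14, 4.14 and 4.41 in wild type. Of the wild-type arrays 2 had Cox7a1 below their controls, so no fold is given. Their widely expressed partners moved little: Cox8a differed by -0.08 and Cox7a2 by 0.39. Cox6a2, the third heart and muscle form, differed by -0.16. Cox4i2 went the other way, with 4.80 against 6.12, 6.11 and 6.47 in wild type, 2.69-fold lower, while Cox4i1 differed by 0.19.

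The summed markers of brown fat and heart, a list that includes Cox6a2, Cox7a1 and Cox8b themselves, read 10.98 in that array, against 8.34 to 9.01 in the 5 other arrays. Of its 9 genes 6 lay above the control in that array and 3 or 4 in each of the others. The summed skeletal muscle markers read 8.62 in that array, against 9.42 to 11.05 in the 5 other arrays, and 9 of 15 lay above its control. Of the heart and brown fat genes, Myh6 at 2.81, Nppa at 3.96 and Ucp1 at 3.57 lay below the control of 4.13, and Actc1 read 5.31, against 6.07, 5.89 and 6.03 in wild type. By contrast, Cidea read 7.48, against 3.38, 3.71 and 3.43 in wild type, and Tnni3 read 6.65, against 3.89, 3.58 and 3.62 in wild type. The summed olfactory and airway markers read 16.66, with 11 of 12 above the control. The part of these 3 lists in the Cox8b and Cox7a1 values was not tested.

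The promoters of Cox8b and Cox7a1 are shown beside those of their widely expressed partners because they hold few CG pairs, which most other respiratory chain promoters hold in number. The sequences are the 250 bases before the gene start in the RefSeq annotation of GRCm38.p6, written 5′ to 3′ on the gene's strand, with CG pairs in capitals. They are Cox8b at chr7:140900447-140900696 (minus strand), Cox8a at chr19:7217617-7217866 (minus), Cox7a1 at chr7:30183921-30184170 (plus) and Cox7a2 at chr9:79759854-79760103 (minus).
Cox8b: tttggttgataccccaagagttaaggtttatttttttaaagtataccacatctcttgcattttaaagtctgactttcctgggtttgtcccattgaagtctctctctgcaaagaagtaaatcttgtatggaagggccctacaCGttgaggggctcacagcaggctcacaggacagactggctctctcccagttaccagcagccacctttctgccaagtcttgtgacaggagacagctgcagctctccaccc
Cox8a: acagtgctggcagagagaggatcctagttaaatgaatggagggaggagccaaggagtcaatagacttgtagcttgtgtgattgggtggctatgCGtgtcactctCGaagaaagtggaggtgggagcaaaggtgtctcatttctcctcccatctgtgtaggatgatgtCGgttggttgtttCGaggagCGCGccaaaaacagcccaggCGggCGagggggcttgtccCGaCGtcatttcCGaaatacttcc
Cox7a1: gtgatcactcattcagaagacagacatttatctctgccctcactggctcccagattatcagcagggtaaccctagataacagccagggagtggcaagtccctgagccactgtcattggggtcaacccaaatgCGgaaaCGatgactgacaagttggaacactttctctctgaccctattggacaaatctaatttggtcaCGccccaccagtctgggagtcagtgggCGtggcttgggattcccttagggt
Cox7a2: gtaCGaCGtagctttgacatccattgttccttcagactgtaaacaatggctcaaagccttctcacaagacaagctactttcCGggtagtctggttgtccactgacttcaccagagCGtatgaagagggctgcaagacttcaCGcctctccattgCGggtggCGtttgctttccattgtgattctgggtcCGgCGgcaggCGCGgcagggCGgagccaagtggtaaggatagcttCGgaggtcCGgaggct

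Cox8b has 1 CG pair in this stretch and Cox7a1 has 4, where Cox8a has 11 and Cox7a2 has 14. Where a gene had several promoters, the highest CG count was taken. A promoter was found for 74 of the 90 genes by gene identifier. Their median was 15 CG pairs, against 6 over the 27025 genes of the promoter table. Fewer than 5 were held by 3 of 74 (4.05%), against 42.4% of the 27025. They were Cox8b, Cox7a1 and the complex I accessory subunit Ndufc2 with 4. Cox8b and Cox7a1 were shown because of these low counts, so their place below 5 is not a separate result. The other 2 tissue forms with a promoter, Cox6b2 and Cox7b2, had 8 and 9.

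Motifs known from respiratory chain promoters were counted in the same 250 bases on both strands. A gene counted if any of its promoters held the motif. All genes here are the 27025 of the promoter table. The palindrome bound by nuclear respiratory factor 1 (GCGCA, any base, then GCGC) was found in 12 of 74 genes (16.2%), against 4.23% of all genes, and CCGGAAG, a core bound by ETS factors, in 14 (18.9%), against 7.83%. The GC box GGGCGG was found in 31 (41.9%), against 35.4%, AAGATGGC, a core bound by YY1, in 1 (1.35%), against 1.83%, and TATAAA in 7 (9.46%), against 14.3%. The first 3 motifs overlap with the CG pairs counted above, and how far their shares follow the number of CG pairs was not tested. A match is a description of the letters and not of a bound site.

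More than 1 probe set bears on 51 of the 90 genes, with 89 probe sets beyond those used above. Of these, 78 lay above the controls in every array. In knockout replicates 1 and 2, 53 of the 78 had the same sign of change as the main probe set of their gene. The next brightest probe sets of Sdha, Atp5pb, Cox6b1, Ndufaf4, Uqcrh and Cox7a2l had groups that overlap, where the main ones did not. Those of Ndufa3, Ndufc1 and Uqcrc2 had groups that do not overlap. Some genes went the other way, among them Cox5a, whose groups overlapped on the main probe set but not on the next brightest. In the array titled knockout replicate 3 the sign was the same for 57 of the 78. In that array, 43 further probe sets with a wild-type mean of at least 10 were all within 2-fold of wild type. Of the 78, 3 lay past 2-fold, and they are named here after their values were seen. For Atp5o a dimmer probe set lay 1.14 above wild type where the main one lay 0.73 above, and for Ndufab1, the acyl carrier protein, a dimmer one lay 1.04 below. For Ndufa12, a complex I accessory subunit, a dimmer probe set read 6.41 in the array titled knockout replicate 3, against 9.88, 10.01 and 9.72 in wild type, while the main one read 11.10, against 11.26, 11.26 and 11.12 in wild type. For Ndufa12 the probe sets therefore disagree. Cox8b, Cox7a1 and Cox4i2 have no other probe set that names them alone.

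Genes that build, feed or regulate the respiratory chain were described from 5 lists. In knockout replicates 1 and 2 against wild type none of them passed the test: 0 of 43 further assembly factors, 0 of 15 electron carriers and nucleotide exchangers, 0 of 17 citric acid cycle genes, 0 of 20 genes of mitochondrial biogenesis and DNA upkeep and 0 of 11 genes of coenzyme Q synthesis. Their median log2 changes were 0.03, 0.02, 0.03, 0.03 and 0.00. Nrf1, the transcription factor whose motif is counted above, read 7.79 and 8.09 in knockout replicates 1 and 2, against 8.14, 8.22 and 8.12 in wild type, a change of -0.23 ± 0.11 (SE), with a limma adjusted p of 0.999. Ckmt1, the mitochondrial creatine kinase, differed by -0.21 ± 0.11, and Idh3a, a subunit of the NAD-dependent isocitrate dehydrogenase of the cycle, by 0.13 ± 0.11. The copper chaperone Sco1 of complex IV differed by 0.16 ± 0.10, the ATP synthase assembly factor Atpaf1 by 0.13 ± 0.09 and Coq3, a methyltransferase of coenzyme Q synthesis, by -0.17 ± 0.11.

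In the array titled knockout replicate 3, where 15.8% of all genes were over 2-fold higher and 11.5% over 2-fold lower, the lists had these counts past 2-fold. Of the 43 assembly factors 3 were higher and 2 lower, of the 15 carriers 2 were higher and 1 lower, and of the 17 cycle genes 2 were higher. Of the 20 biogenesis genes 3 were lower, and of the 11 coenzyme Q genes 1 was higher. Some are named here after their values were seen. Slc25a4, the adenine nucleotide carrier abundant in heart and muscle, read 11.13 in that array, against 12.71, 12.68 and 12.53 in wild type. Suclg2, the GTP-specific subunit of succinyl-CoA ligase, read 9.71, against 6.60, 6.85 and 6.58 in wild type. Ppargc1b, a coactivator of mitochondrial genes, read 8.43, against 10.65, 10.74 and 10.87 in wild type, and Polg2, the accessory subunit of the mitochondrial DNA polymerase, read 7.71, against 10.49, 10.41 and 10.46 in wild type. No test was made for this single array.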

How the data were processed

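Retinal RNA was hybridised to 1-colour Affymetrix arrays as biotin-labelled cRNA, per the labels' protocols. The deposited log2 values are RMA values, per the submitters' processing notes. RMA subtracts background, gives every array the same distribution and combines the probes of each probe set, so a change in the amount of RNA as a whole does not show, and differences of dim genes are compressed. Its version and the chip definition are not stated in the labels.

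Of 45101 probe sets, 64 controls were left out, and 34945 of the other 45037 name exactly 1 gene in the platform annotation, which leaves 18193 genes. Another 10 probe sets name a respiratory chain gene with other genes and were not used, and 17 of the 90 genes rest on a probe set of a kind that can bind related transcripts. Promoters come from RefSeq tables of GRCm38.p6.

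Limma 3.58.1 (lmFit and eBayes, R 4.3.3) compared knockout replicates 1 and 2 with the 3 wild-type arrays, and all 3 knockout-titled arrays with the same 3, two-sided, without covariates, with Benjamini-Hochberg adjustment over 18193 genes and a threshold of 0.05. The array titled knockout replicate 3 was set against the wild-type mean with a 2-fold limit and no test. Marker sums are the log2 of summed linear values. The procedure was tested on simulated data. Figures were drawn with matplotlib 3.10.9.

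The genes, lists, tests and alternatives were chosen with earlier results of these data known. Genes were named by rule: the 3 with the smallest p in each complex, the 6 farthest above and below wild type in the array titled knockout replicate 3, complex II, the isoform sets, and up to 2 genes per pathway list with the smallest p. Deviations of same-numbered arrays from their group means correlated at -0.07, -0.02 and -0.08 over genes. The knockout mean includes the divergent array titled knockout replicate 3, so these values cannot decide whether replicate numbers pair the arrays. The fits were repeated with array weights, a robust fit with a variance trend, other normalizations, filters, thresholds and choices of probe set, a replicate block, and each array left out.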

Additional observations from a re-analysis of the deposited data

How the results depend on the processing

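The number of respiratory chain genes called stayed 0 under every alternative run, for the comparison of 5 arrays and for that of 6, including the replicate block, an adjusted p of 0.1 and each array left out. Whether the replicate numbers pair the arrays is not known, and with them as a block the median change over the 90 genes was 0.01. That median was 0.04, ranged from -0.0055 (without knockout replicate 2) to 0.083 (without knockout replicate 1) with 1 array left out, and lay at 0.01 to 0.04 otherwise. In the array titled knockout replicate 3, the genes past 2-fold (2 higher, 1 lower) became 1 higher and 0 lower without dim genes, 9 higher and 3 lower at 1.5-fold, and 0 lower at 4-fold, as fewer genes or another limit entail. With probe sets of the kind that can bind related transcripts left out, 2 were lower, Cox4i2 and Ndufa12. The median difference of 0.10 was 0.0403 when all probe sets of a gene were averaged and 0.08 to 0.12 with 1 wild-type array left out. Changes near 0 turned sign for some genes in the 5 arrays. With the replicate block Cox7c was -0.0087, Ndufa4l2 -0.006 and Sdhb -0.0184. With the mean of all probe sets Atp5g1 was 0.0533, Atp5g2 -0.0428 and Sdhd 0.0565, with median centring Atp5b was 0.0004, and with the other probe set Cox7c was -0.0818. With 1 array left out the changes ranged from -0.0311 to 0.0203 for Atp5b, -0.0349 to 0.1815 for Atp5e, -0.0908 to 0.0061 for Atp5g1, -0.0632 to 0.0833 for Atp5g2, -0.0135 to 0.1947 for Atp5o, -0.0372 to 0.0115 for Cox6a1, -0.1655 to 0.4072 for Cox6a2, -0.0056 to 0.1877 for Cox7b2, -0.0087 to 0.1505 for Cox7c, -0.0848 to 0.062 for Cox8a, -0.759 to 0.1956 for Cox8b, -0.1206 to 0.0963 for Ndufa4, -0.0238 to 0.0839 for Ndufa4l2, -0.0939 to 0.0068 for Ndufaf5, -0.1008 to 0.0218 for Ndufaf6, -0.0033 to 0.225 for Ndufb6, -0.0614 to 0.1414 for Sdhb, -0.0242 to 0.0077 for Sdhd, -0.032 to 0.2346 for Uqcr10 and -0.06 to 0.0019 for Uqcr11. None of these genes was called, and the cause was not tested. Signal near the controls limits what can be said of Cox7a1 and Cox7b2.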
